A study of Mus musculus with 7 samples.

Results

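Disease-associated microglia genes were examined in the retinal pigment epithelium (RPE) of Mfrp rd6 mutant and wild-type mice, 9 genes chosen by name (Cst7, Lpl, Itgax, Spp1, Clec7a, Csf1, Igf1, Lgals3 and Cd9) because microglia are known to induce them in degenerating nervous tissue and in the subretinal space. Of these, 8 were measured among the 19938 genes tested, each by 1 probe set, and Spp1 (osteopontin) was matched by no probe set annotated to its symbol and was not analysed here. RNA from 3 Mfrp rd6 and 4 wild-type samples, all on the C57Bl/6J background, was hybridised to 1 Affymetrix gene array each. The Mfrp rd6 mice carry a germline recessive allele of Mfrp, a membrane protein gene of the RPE, and the wild-type mice carry none. The age field of the labels gives 12 weeks for the 3 Mfrp rd6 samples and 8 weeks for the 4 wild-type samples, so by that field age and genotype cannot be told apart. By the growth protocol the first Mfrp rd6 sample alone was taken at 12 weeks and every other sample at 8 weeks. Whether a sample was 1 animal or a pool, and whether replicates were separate animals, is not stated in the labels. The p-values therefore reflect only how far these arrays vary, and that variation may be technical.

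Microglia are the resident macrophages of the retina. In damaged tissue they lower their homeostatic genes and switch on a lipid-handling, phagocytic and growth-factor programme that depends on the receptor Trem2 and its adaptor Tyrobp, known from Alzheimer's disease models as the disease-associated microglia state. In retinal degeneration cells of this kind gather in the subretinal space on the apical face of the RPE, and the eyes of rd6 mice are known for pale spots in the fundus with macrophage-like cells over the RPE.

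Values are log2 RMA signals, on which 1 unit is a 2-fold difference, and the array medians lay between 6.52 and 6.58. The 11 RPE markers averaged 11.69 to 11.76 in Mfrp rd6 and 11.72 to 11.81 in wild type. The 1 probe set annotated to Mfrp is shared with its neighbour C1qtnf5 and read 11.20, 11.23 and 11.09 in Mfrp rd6 against 11.36, 11.22, 11.49 and 11.26 in wild type, so it does not check the genotype labels. Transcripts of other tissues differed between arrays. Skeletal muscle markers averaged 8.03 to 8.87 in Mfrp rd6 and 6.81 to 7.98 in wild type (15 genes), with the highest wild-type value in replicate 3. Rod markers averaged 6.91 to 7.27 in Mfrp rd6 and 7.13 to 8.33 in wild type (8 genes), again with wild-type replicate 3 highest. Lens markers stood at 7.77 in Mfrp rd6 replicate 2 and at 5.34 to 5.61 on the other 6 arrays. Surface epithelium markers were nearly as bright as the RPE markers. They averaged 11.16 to 11.28 in Mfrp rd6 and 11.34 to 11.52 in wild type (6 genes), without overlap.

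Of the 8 measured members, 4 rose in Mfrp rd6 and 0 fell. Across all genes tested 429 changed, or 2.15%, of which 267 rose, a background of 1.34%, and 162 fell, or 0.813% (limma, adjusted p under 0.05). An unadjusted p under 0.05 with a higher mutant mean was reached by 5 members and by 5.98% of all genes. Cst7, an inhibitor of cysteine proteases, rose 9.46-fold, the beta-glucan receptor Clec7a 2.85-fold, the growth factor Igf1 1.9-fold and the colony-stimulating factor Csf1 1.41-fold. Itgax, Lpl, Cd9 and Lgals3 did not pass the test. The median log2 change of the 8 genes was 0.50, against -0.02 over all genes, and 7 of 8 changes were positive. Every Mfrp rd6 array lay above every wild-type array for 5 members, the 4 that rose and Itgax, as it did for 5.52% of all genes. Leaving out the first Mfrp rd6 array, so that all samples had the same age by the growth protocol, gave a count of 4 with the same genes. Leaving out both the rod-rich wild-type array and the lens-rich mutant array gave 2 (Cst7 and Clec7a). With the muscle mean as a covariate it was 1 (Cst7) and with the rod mean 2 (Cst7 and Clec7a). The muscle mean did not overlap between the groups, at 8.03 or more in Mfrp rd6 and 7.98 or less in wild type. The muscle fit therefore separates genotype from muscle content poorly, and the part of either in a lost call was not tested. In these bulk samples a change in the number of cells that make a transcript and a change in the RNA per cell cannot be told apart.

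**Figure D1:**
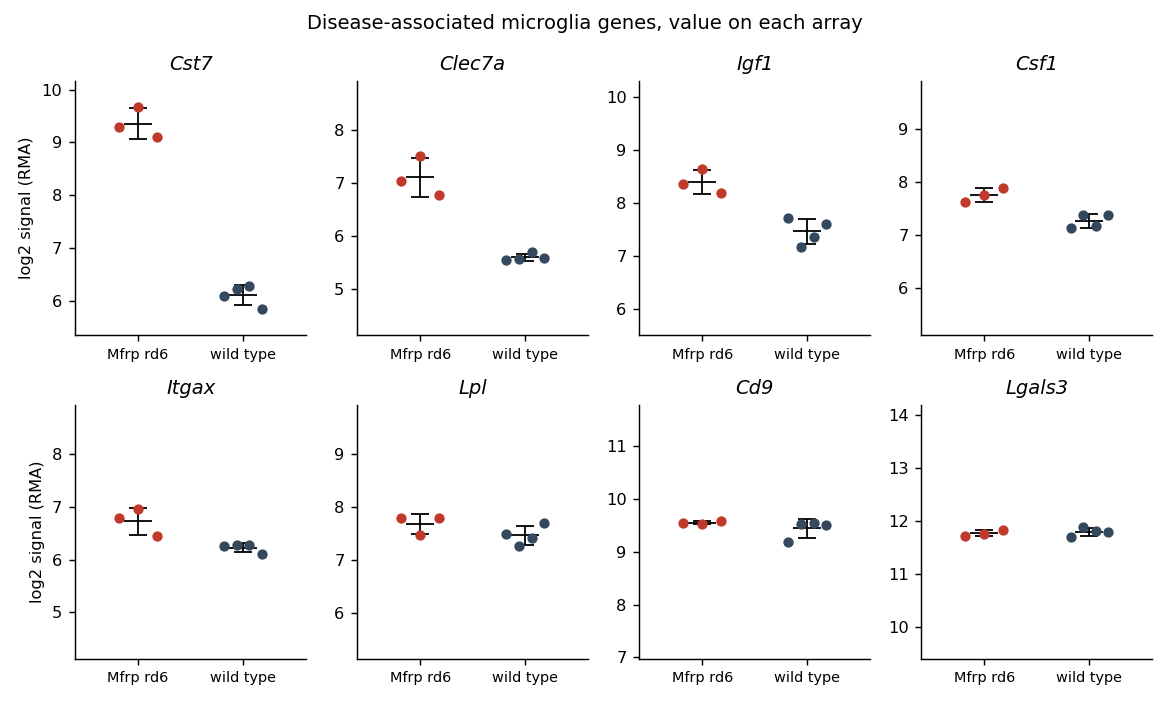
Log2 signal (vertical axis) of the 8 measured genes on each of the 3 Mfrp rd6 arrays (left, red) and 4 wild-type arrays (right, dark), with the mean and SD as black bars; every panel spans the same number of log2 units. Cst7 separates most widely, at 9.10 to 9.67 in Mfrp rd6 and 5.85 to 6.28 in wild type, while the points of Lpl, Cd9 and Lgals3 overlap.

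**Figure D2:**
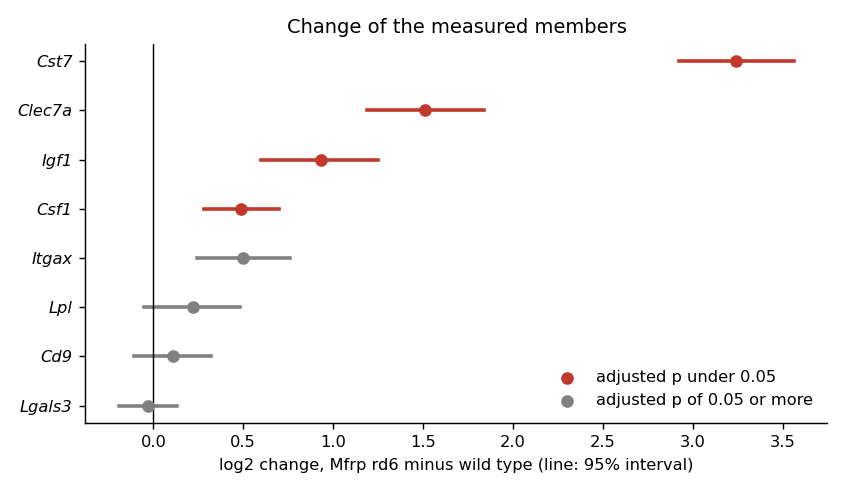
Log2 change of each measured gene, Mfrp rd6 minus wild type (horizontal axis), with its 95% interval from limma as a line; red marks an adjusted p under 0.05. The changes run from 3.24 for Cst7 to -0.03 for Lgals3.

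Promoters are printed for the 5 members whose arrays did not overlap, since these genes were higher together. They come from RefSeq (GRCm38.p6) and run 5' to 3' from 250 bases before to 50 after the annotated start. The windows are chr2:150570165-150570464 on the plus strand for Cst7, chr6:129472730-129473029 on the minus strand for Clec7a (the first of 2 listed windows), chr10:87860861-87861160 on the plus strand for Igf1, chr3:107760420-107760719 on the minus strand for Csf1 and chr7:128129300-128129599 on the plus strand for Itgax. Capitals mark exact matches, on either strand, to letters of 9 motifs: PU.1, the myeloid master factor (GAGGAAGT and GGAAGTG, which share GGAAGT), AP-1 (TGAGTCA), the E-box of the MiT/TFE factors (CACGTG), MAF (TGCTGAC), C/EBP (TTGCGCAA), NF-kB (GGGACTTTC and GGGAATTTC) and the TATA box (TATAAA).
Cst7: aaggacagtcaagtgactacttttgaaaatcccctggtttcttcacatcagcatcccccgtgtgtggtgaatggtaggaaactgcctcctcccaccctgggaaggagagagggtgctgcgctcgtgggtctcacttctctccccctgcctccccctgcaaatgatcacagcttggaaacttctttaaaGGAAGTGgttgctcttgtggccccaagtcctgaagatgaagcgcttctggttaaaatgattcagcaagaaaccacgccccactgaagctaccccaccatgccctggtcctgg
Clec7a: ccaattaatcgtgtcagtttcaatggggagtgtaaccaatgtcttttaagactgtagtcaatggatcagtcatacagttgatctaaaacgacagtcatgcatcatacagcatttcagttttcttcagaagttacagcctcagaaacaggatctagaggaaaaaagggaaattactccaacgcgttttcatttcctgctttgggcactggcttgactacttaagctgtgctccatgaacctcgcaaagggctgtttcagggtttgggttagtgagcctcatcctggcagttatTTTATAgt
Igf1: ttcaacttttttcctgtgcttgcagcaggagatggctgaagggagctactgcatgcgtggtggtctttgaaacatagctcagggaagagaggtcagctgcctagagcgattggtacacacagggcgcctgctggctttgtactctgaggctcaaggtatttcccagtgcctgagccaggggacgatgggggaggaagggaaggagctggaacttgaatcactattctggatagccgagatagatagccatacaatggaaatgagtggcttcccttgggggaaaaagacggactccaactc
Csf1: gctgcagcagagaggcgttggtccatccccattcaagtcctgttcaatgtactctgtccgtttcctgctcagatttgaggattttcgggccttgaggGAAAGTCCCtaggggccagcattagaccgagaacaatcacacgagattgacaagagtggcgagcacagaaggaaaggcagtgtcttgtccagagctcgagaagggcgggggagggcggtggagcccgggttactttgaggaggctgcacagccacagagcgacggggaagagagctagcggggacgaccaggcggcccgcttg
Itgax: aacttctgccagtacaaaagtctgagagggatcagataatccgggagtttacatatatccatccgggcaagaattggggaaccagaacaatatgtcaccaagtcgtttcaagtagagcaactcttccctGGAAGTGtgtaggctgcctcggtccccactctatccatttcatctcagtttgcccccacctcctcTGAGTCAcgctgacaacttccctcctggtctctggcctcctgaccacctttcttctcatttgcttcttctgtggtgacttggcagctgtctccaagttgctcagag

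The Cst7 window held the shorter PU.1 letters, beginning 62 bases before the start, and the Itgax window held them 121 bases before it. The first of 2 listed Spp1 windows, not printed, held them 111 bases before it, and the second did not hold them. Of all 32851 promoters of this length, 11% held these letters. Itgax also held the AP-1 letters, 56 bases before the start (5.2% of all promoters). In Csf1 the first NF-kB motif was matched on the other strand, 153 bases before the start (0.353% of all promoters), and in Clec7a the TATA letters lay on the other strand, 42 bases after it (13.6%). The first Spp1 window held the TATA letters as written, 211 bases before the start. In the Igf1, Cd9 and Lgals3 windows none of the 9 motifs was matched. The E-box (7.15% of all promoters), MAF (4.67%), C/EBP (0.183%) and second NF-kB letters (0.259%) were matched in 0 of the 8 members with a listed promoter, and the longer PU.1 letters (3.2%) in Spp1 alone, where they overlap the shorter ones.

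Cst7 encodes cystatin F, an inhibitor that immune cells place in their lysosomes, and is among the most strongly induced genes of the disease-associated state. It read 9.30, 9.67 and 9.10 in Mfrp rd6 and 6.10, 6.23, 6.28 and 5.85 in wild type. The lowest mutant array stood 2.82 log2 units above the highest wild-type array, and all wild-type values lay below the array medians. Its change of 3.24 (SE 0.14, 95% interval 2.92 to 3.56) ranked 2 among all rises and passed the test (limma, adjusted p = 4.89e-06). It passed in all 20 alternative fits, at 2.84 to 3.41.

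Among the other cystatins and the proteases they inhibit, 1 of 10 measured genes rose and 0 fell, with a median change of 0.03. The riser was cathepsin S (Ctss), a lysosomal protease of antigen-presenting cells, at 9.98, 10.41 and 9.79 in Mfrp rd6 against 7.59, 7.74, 7.71 and 7.76 in wild type (2.36, limma adjusted p = 1.56e-05). Cystatin C (Cst3), the common secreted cystatin, read 13.27 ± 0.04 in Mfrp rd6 and 13.20 ± 0.03 in wild type (SD, n = 3 and 4), a change of 0.07. Cathepsin C (Ctsc), a known target of cystatin F, differed by -0.01, and legumain (Lgmn) by 0.34 (limma adjusted p = 0.0996).

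Clec7a encodes Dectin-1, a C-type lectin receptor for beta-glucans that signals through Syk and Card9 and marks plaque-associated microglia. It read 7.05, 7.51 and 6.78 in Mfrp rd6 against 5.55, 5.57, 5.70 and 5.59 in wild type. The wild-type arrays spanned 0.15 log2 units and the lowest mutant array lay 1.08 above them. The change was 1.51 (SE 0.15, 95% interval 1.19 to 1.84, limma adjusted p = 0.00067), in a range of 1.08 to 1.68 over the 19 alternatives that tested it. With the muscle mean as a covariate it was 1.08 and did not pass (limma adjusted p = 0.169).

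Of 14 genes of the neighbouring lectin cluster and of Dectin-1 signalling, 0 rose and 1 fell (median change 0.06). The gene that fell was Bcl10, a signalling adaptor downstream of Card9, at 9.35, 9.33 and 9.28 in Mfrp rd6 against 9.78, 9.79, 9.77 and 9.76 in wild type (-0.45, limma adjusted p = 0.00556). Syk (-0.05), Card9 (0.15) and Malt1 (-0.15) did not pass. Clec12a, a lectin receptor of the same cluster, averaged 4.41 ± 0.11 in Mfrp rd6 and 4.30 ± 0.14 in wild type, a change of 0.11, and the scavenger receptor Olr1 differed by 0.17. Several of the 14 genes, among them Clec12a, Olr1 and Clec4e, read below the lower quartiles of the arrays (4.90 to 5.02). A missing call at such levels does not show that a gene was unchanged.

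Itgax encodes CD11c, the alpha chain of a beta2 integrin used as a marker of dendritic cells and of disease-associated microglia. It read 6.78, 6.95 and 6.44 in Mfrp rd6 and 6.25, 6.27, 6.28 and 6.10 in wild type. The groups did not overlap, but the lowest mutant value was only 0.16 above the highest wild-type value. The change of 0.50 (SE 0.11, 95% interval 0.24 to 0.76) missed the threshold (limma, adjusted p = 0.0632). It passed in 4 of 19 alternatives, among them the fit without Mfrp rd6 replicate 3 (0.64, limma adjusted p = 0.0122).

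Its partner chain Itgb2, shared by the leukocyte integrins, was the only gene of 6 beta2 integrin chains and ligands that rose, by 1.08 (limma adjusted p = 0.00198), and 0 fell. Itgb2 read 7.41, 7.85 and 7.49 in Mfrp rd6 and 6.41, 6.33, 6.66 and 6.63 in wild type. The other alpha chains Itgal (0.20), Itgad (0.23) and Itgam (-0.12) did not pass. Of 8 dendritic cell markers 0 changed (median 0.04), and their mean was 6.39 to 6.53 in Mfrp rd6 and 6.33 to 6.45 in wild type. Cd74, the class II invariant chain in that list, differed by 0.43 (limma adjusted p = 0.13).

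The secreted factors of the set are Igf1, Csf1 and osteopontin. Igf1, an insulin-like growth factor through which microglia support neurons, read 8.36, 8.64 and 8.19 in Mfrp rd6 against 7.72, 7.18, 7.37 and 7.61 in wild type. All mutant arrays were above the wild-type ones, by at least 0.47, within a wild-type range of 0.54. The change was 0.93 (SE 0.14, 95% interval 0.60 to 1.25, limma adjusted p = 0.0115). Igf1 stayed between 0.77 and 1.03 in the 20 alternatives and passed in 15, which do not include the muscle covariate (0.87, limma adjusted p = 0.458), the rod covariate (0.83, limma adjusted p = 0.0959) or the fit without those 2 arrays, wild-type 3 and mutant 2 (0.77, limma adjusted p = 0.0993).

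In the rest of the IGF system 0 of 12 genes rose and 0 fell, with a median change of -0.02. The receptor Igf1r read 10.61 ± 0.11 in Mfrp rd6 and 10.92 ± 0.06 in wild type (SD, n = 3 and 4; -0.32, limma adjusted p = 0.0758). Igf2r, which clears IGF2 and carries lysosomal enzymes, differed by -0.28 (limma adjusted p = 0.0658) and the insulin receptor Insr by -0.25. Igfbp7, a binding protein of the vessel wall and matrix, differed by 0.31 (limma adjusted p = 0.0842), with all mutant arrays above all wild-type arrays. Igf2 itself differed by -0.01.

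Csf1, a survival and growth factor for microglia and macrophages, read 7.63, 7.76 and 7.89 in Mfrp rd6 and 7.14, 7.38, 7.17 and 7.38 in wild type. The lowest mutant array was 0.25 above the highest wild-type array. The change was 0.49 (SE 0.09, 95% interval 0.28 to 0.70, limma adjusted p = 0.029) and stayed between 0.43 and 0.65, but passed in only 10 of 20 alternatives. The call was lost without Mfrp rd6 replicate 2 (limma adjusted p = 0.0984) or 3 (0.0976), and without wild-type replicate 1 (0.0762) or 3 (0.0749).

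Of 7 other genes of the colony-stimulating factor system, 2 rose and 0 fell (median change 0.40). Csf3r, the G-CSF receptor, rose by 1.30 (limma adjusted p = 0.00138), and Csf2rb, the shared signalling chain of the GM-CSF, IL-3 and IL-5 receptors, by 0.81 (limma adjusted p = 0.00485). The Csf1 receptor, Csf1r, read 10.52, 10.67 and 10.27 in Mfrp rd6 and 10.06, 10.00, 10.34 and 9.95 in wild type. The groups overlapped there through wild-type replicate 3, and the change of 0.40 did not pass (limma adjusted p = 0.145). Il34, the second ligand of this receptor, differed by -0.07. Of 11 osteopontin receptors and relatives 0 rose and 0 fell (median change -0.05), among them Cd44 (-0.17) and the integrin chain Itgav (-0.26, limma adjusted p = 0.261). The relatives Ibsp (4.42 in Mfrp rd6, 4.34 in wild type) and Mepe (3.84 and 3.71) read below the lower quartiles of the arrays. Their missing calls do not show that they were unchanged.

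Lpl, Cd9 and Lgals3 did not pass the test under any of the 20 alternatives, and their groups overlapped. Lpl, the lipase that frees fatty acids from lipoproteins, read 7.80, 7.47 and 7.80 in Mfrp rd6 and 7.49, 7.28, 7.42 and 7.71 in wild type. Mfrp rd6 replicate 2, which had the highest values of Cst7, Clec7a, Igf1 and Itgax among the mutants, had the lowest of Lpl. The change was 0.22 (95% interval -0.05 to 0.48, limma adjusted p = 0.437). Of 12 measured lipase partners, inhibitors and relatives 1 rose and 0 fell (median -0.03). The riser was Apoc3, an apolipoprotein that inhibits Lpl, at 7.93, 8.00 and 7.53 in Mfrp rd6 against 7.05, 7.04, 7.15 and 7.10 in wild type (0.73, limma adjusted p = 0.00992). Gpihbp1, the endothelial anchor of Lpl, differed by 0.05, and of 6 measured adipocyte markers, cells that make much Lpl, 0 changed (Plin1, 0.11). The part of other tissues in the Lpl signal was not tested. With the muscle mean as a covariate the Lpl change was 0.39 (limma adjusted p = 0.735).

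Cd9, a tetraspanin that organises membrane receptors and exosomes, read 9.55, 9.52 and 9.57 in Mfrp rd6 and 9.18, 9.52, 9.55 and 9.50 in wild type, where replicate 1 stood below the others. Its change was 0.11 (95% interval -0.11 to 0.32, limma adjusted p = 0.663). Of 11 other tetraspanins and Cd9 partners 2 rose and 0 fell (median 0.09), both leukocyte tetraspanins. Cd53 read 8.01, 8.14 and 7.72 in Mfrp rd6 against 5.84, 5.60, 5.74 and 5.61 in wild type (2.26, limma adjusted p = 7.43e-06), and Cd37 rose by 1.45 (limma adjusted p = 0.000169). The widely made tetraspanins Cd63 (0.09), Cd81 (0.20), Cd82 (-0.08) and Cd151 (-0.11) did not pass.

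Lgals3 encodes galectin-3, a beta-galactoside-binding lectin that subretinal microglia are known to make and that many epithelia make as well. It read 11.71, 11.75 and 11.83 in Mfrp rd6 and 11.70, 11.88, 11.81 and 11.78 in wild type. The interval of its change, -0.03 (95% interval -0.19 to 0.13, limma adjusted p = 0.899), was the narrowest of the 8 members. Of 8 related genes, the other galectins and the galectin-3 binding protein Lgals3bp, 2 rose and 0 fell (median 0.14). Lgals9 rose by 1.00, at 9.16 ± 0.22 in Mfrp rd6 and 8.16 ± 0.27 in wild type (SD, n = 3 and 4; limma adjusted p = 0.0102). Lgals3bp, a secreted glycoprotein that binds galectin-3, rose by 0.47 (limma adjusted p = 0.0447), a call lost in all 7 fits that left out 1 array (0.39 to 0.52, limma adjusted p of 0.0507 to 0.152). Surface epithelium markers, which could share Lgals3, averaged 11.16 to 11.28 in Mfrp rd6 and 11.34 to 11.52 in wild type, with 0 of 6 changed, and their part in the Lgals3 signal was not tested.

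**Figure D3:**
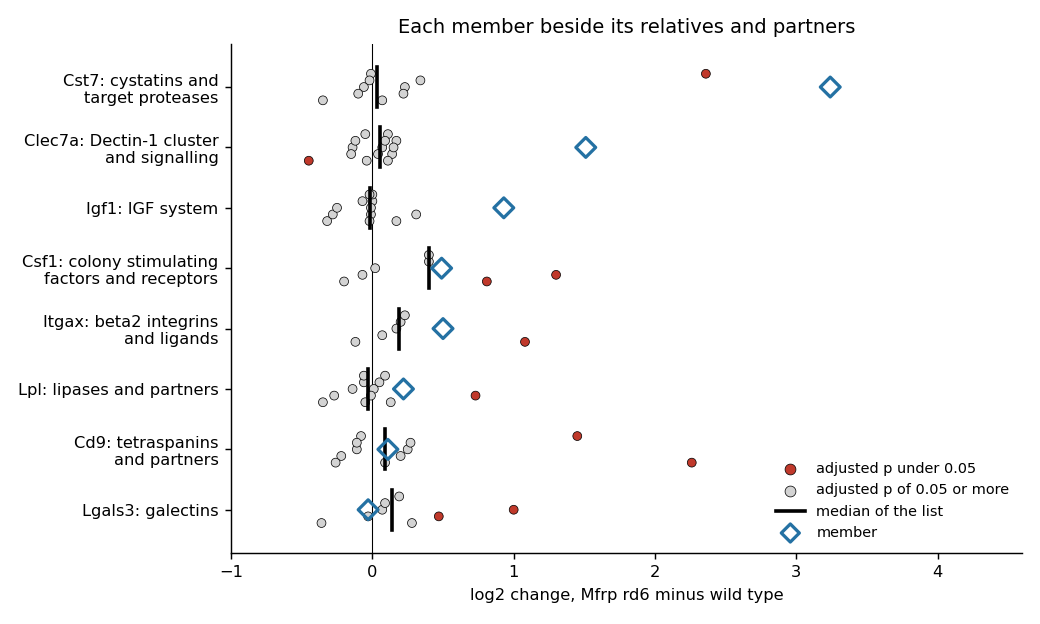
Log2 change, Mfrp rd6 minus wild type (horizontal axis), of each member (blue diamond) and of its relatives and partners (points; red where the adjusted p is under 0.05; black line, median of the relatives). Every member but Lgals3 lies to the right of the median of its row. The distance is widest for Cst7, Clec7a and Igf1, with row medians of 0.03, 0.06 and -0.02. Several genes in the Clec7a row read below the lower quartiles of the arrays. Cd53 and Cd37 lie to the right of Cd9.

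Other genes of the disease-associated state rose in part. Of 33 measured, 11 rose and 0 fell, with a median change of 0.22 against -0.02 over all genes. The signalling adaptor Tyrobp rose by 3.18 (limma adjusted p = 8.63e-06), reading 9.89, 10.54 and 9.91 in Mfrp rd6 and 6.72, 6.97, 7.08 and 6.96 in wild type. Its partner receptor Trem2 rose by 2.72 (limma adjusted p = 0.000414). Lysozyme (Lyz2) rose by 2.39 and the chemokine Ccl3 by 2.29, both with a limma adjusted p of 0.000208. Further rises were those of Mamdc2 (1.57), the inhibitory receptor Lilrb4a (1.35), the lysosomal glycoprotein Cd68 (1.28), the leukocyte glycoprotein Cd52 (1.08), Cd83 (0.70), cathepsin Z (Ctsz, 0.56) and Gpnmb (0.40). The lipid carrier Apoe, at 13.22 ± 0.04 in Mfrp rd6 and 13.05 ± 0.06 in wild type, did not pass (0.16, limma adjusted p = 0.276). The phagocytic receptor Axl (0.34, limma adjusted p = 0.109), cathepsins B (0.22), D (0.12) and L (0.23) and the ferritin chain Fth1 (-0.08) did not pass either. The count was 7 without Mfrp rd6 replicate 1, 7 without both wild-type array 3 and mutant array 2, 7 with the rod covariate and 1 with the muscle covariate. In that last fit Tyrobp passed at 2.73 (limma adjusted p = 0.00767), while the change was 2.14 for Trem2 (0.155), 1.95 for Lyz2 (0.117) and 2.13 for Ccl3 (0.106).

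Of 18 measured homeostatic microglia genes, which the disease-associated state is known to lower, 8 rose, 0 fell and 10 did not pass (median change 0.40). The purinergic receptor P2ry13 rose by 2.63 (limma adjusted p = 0.000111), Fcrls by 1.92 (0.000264), Olfml3 by 1.48 (0.00198) and the fractalkine receptor Cx3cr1 by 1.34 (0.000264). P2ry12, the receptor for extracellular ADP, read 7.10, 7.38 and 6.67 in Mfrp rd6 and 5.94, 5.63, 5.93 and 5.89 in wild type (1.20). Tmem119, a microglial surface protein, rose by 1.27. Among those that did not pass were Gpr34 (0.39), the transcription factor Sall1 (0.39, limma adjusted p = 0.104), Siglech (0.19) and the phagocytic receptor Mertk (-0.20), which the RPE also makes. With the muscle covariate 0 of the 18 passed, while the change was 2.20 for P2ry13 (limma adjusted p = 0.0671), 1.47 for Fcrls (0.124), 1.02 for Olfml3 (0.323) and 1.19 for Cx3cr1 (0.126).

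Of 11 pan-macrophage markers, among them Cd68 again, 10 rose and 0 fell (median change 2.30), and their mean was 8.58 to 9.20 in Mfrp rd6 against 6.75 to 6.91 in wild type. The C1q chains C1qc (3.11), C1qb (3.09) and C1qa (2.90) and the Fc receptor chain Fcer1g (2.96) had the largest rises among these markers, and Ptprc (CD45) did not pass (0.52, limma adjusted p = 0.0695). The count was 6 against a minimum change of 1 log2 unit and 4 with the muscle covariate, where the change was 2.56 for C1qc, 2.77 for C1qb, 2.69 for Fcer1g and 2.63 for C1qa, the last not passing (limma adjusted p = 0.0621). Their mean was highest in Mfrp rd6 replicate 2 and lowest in replicate 3, as were Cst7, Clec7a, Igf1 and Itgax, whereas Csf1 was highest in replicate 3. The part of the pan-macrophage signal in the members' changes was not tested.

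Few markers of other immune cells passed the test. Several, such as Ccr2 (4.62 in both groups), Mrc1 and Cxcr2, read below the lower quartiles of the arrays (4.90 to 5.02). At such levels a missing call does not show that the cells were unchanged. Of 8 markers of perivascular and border macrophages 1 rose and 0 fell, Ms4a7 (1.65, limma adjusted p = 0.015), while Mrc1 stood at 4.61 ± 0.17 in Mfrp rd6 and 4.78 ± 0.10 in wild type. Of 5 measured monocyte markers 0 rose and 1 fell, Plac8 (-0.80, limma adjusted p = 0.0151). In wild type Plac8 averaged 10.79, while Vcan, the next highest of these markers, averaged 7.30 and F13a1 5.54. The part of other tissues in the Plac8 signal was not tested, so its fall does not show a change in monocytes. Of 8 neutrophil markers the receptor Cxcr2 rose (0.43, limma adjusted p = 0.041) and lactoferrin (Ltf), also a tear gland and surface epithelium product, fell (-0.78, limma adjusted p = 0.0389). Of 9 T and NK cell markers 1 rose, Cd3e (0.43, limma adjusted p = 0.0193), and of 4 measured B cell markers 0 changed, with Cd79b at 0.06.

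**Figure D4:**
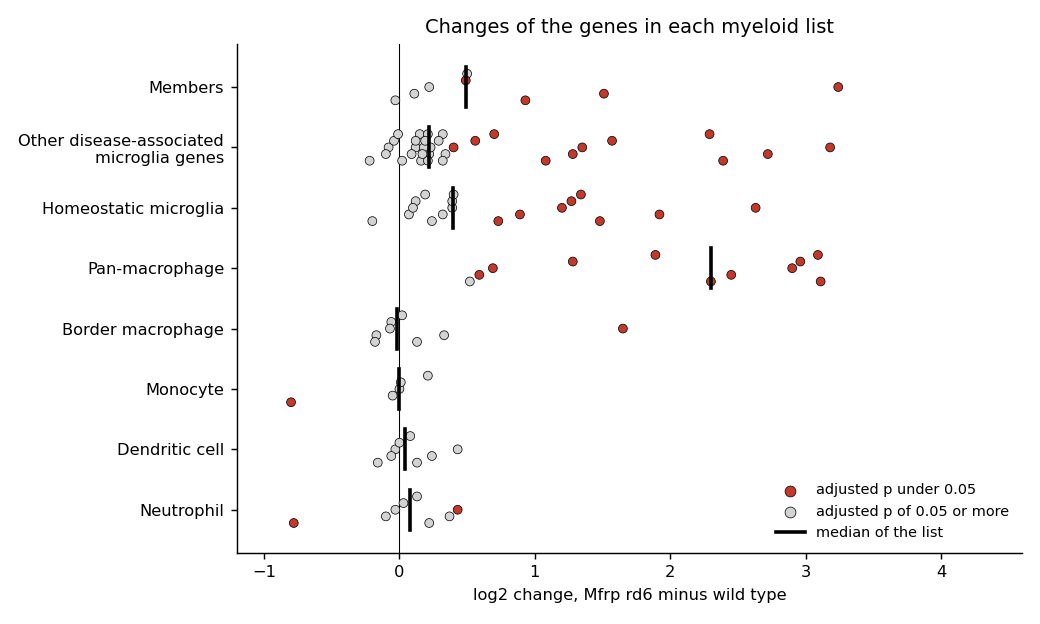
Log2 change, Mfrp rd6 minus wild type (horizontal axis), of the measured genes in 8 myeloid lists (points; red where the adjusted p is under 0.05; black line, median of the list). The upper 4 rows hold most of the red points, with medians of 0.50, 0.22, 0.40 and 2.30, and the medians of the lower 4 rows lie between -0.02 and 0.08.

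Among markers of tissues outside the immune system, those of skeletal muscle and endothelium held more than 1 call. Of 15 skeletal muscle markers 3 rose, Atp2a1 (2.21), Pvalb (2.18) and Myh4 (1.84), with limma adjusted p values of 0.0422, 0.0316 and 0.0258. Endothelial markers averaged 7.27 to 7.61 in Mfrp rd6 and 6.80 to 7.24 in wild type, and 2 of 8 rose, Plvap (0.57) and the angiopoietin receptor Tek (0.55). Of 6 fibroblast markers 1 fell, decorin (Dcn, -0.92, limma adjusted p = 0.014). Of 11 RPE markers 1 fell, Lrat (-0.40, limma adjusted p = 0.0277), which esterifies retinol. Of 8 rod markers 0 passed the test, but 0 had a positive change (median -0.57), with the transducin chain Gnat1 at -0.67 (limma adjusted p = 0.402). Of 8 markers of Müller glia and astrocytes 0 changed (Glul, -0.06), nor did any of 4 measured Schwann cell markers (Pmp22, -0.05), 6 surface epithelium markers (Krt5, 0.01) or 5 lens markers (Bfsp1, 0.03). The lens median was still 1.10, with Cryaa at 9.75 in Mfrp rd6 replicate 2 and at 5.89 and 6.02 in the other mutants. The surface epithelium median was -0.11, with Krt12 at -0.77 (limma adjusted p = 0.181). Of 7 fits that left out 1 array each, Ms4a7 passed in 6, Dcn in 5, Plac8 in 4, Cd3e in 3, Ltf and the 3 muscle genes in 2, and Cxcr2, Lrat, Plvap and Tek in 1. Their changes kept their direction in these fits, at -0.44 to -0.35 for Lrat, 0.50 to 0.65 for Plvap, 0.46 to 0.62 for Tek, 0.35 to 0.53 for Cxcr2 and 1.93 to 2.65 for Atp2a1. Cst7 rose by 3.08 without the lens-rich Mfrp rd6 replicate 2, and Clec7a by 1.31.

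**Figure D5:**
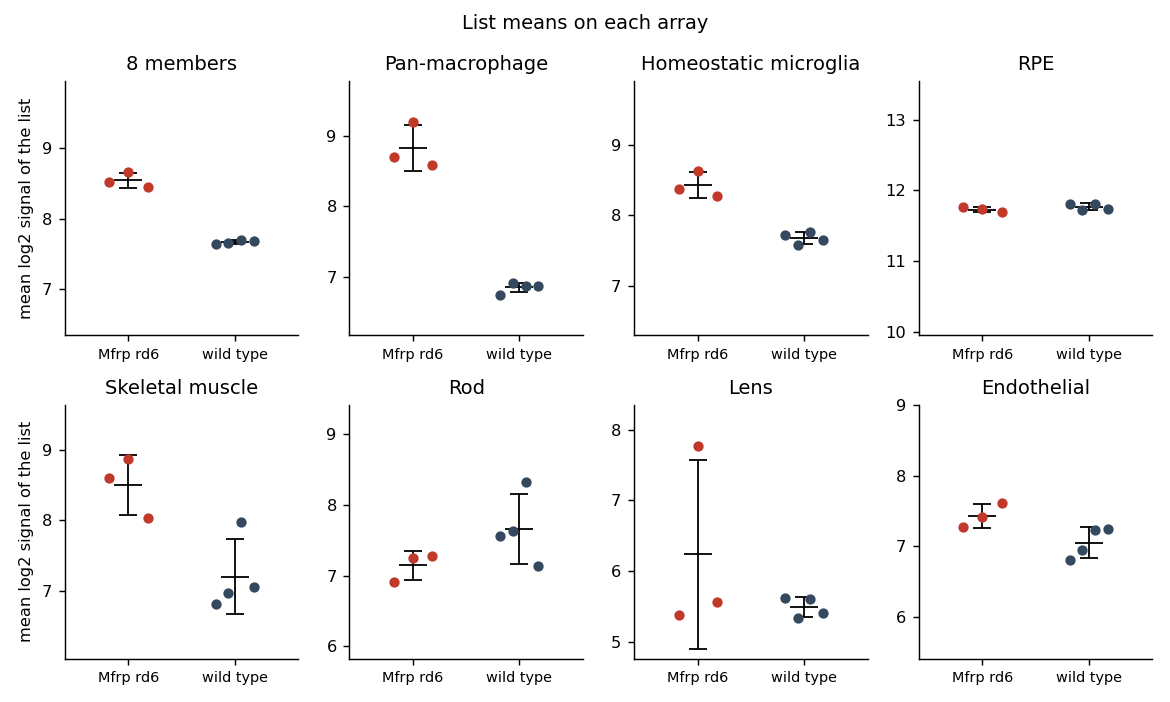
Mean log2 signal (vertical axis) of the members and of 7 marker lists on each of the 3 Mfrp rd6 arrays (left, red) and 4 wild-type arrays (right, dark), with the mean and SD as black bars. The 8 members averaged 8.45 to 8.66 in Mfrp rd6 and 7.64 to 7.70 in wild type, the muscle and rod panels show wild-type replicate 3 apart, and the lens panel shows Mfrp rd6 replicate 2 apart.

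For each member that rose, the genes with the nearest profile were found among the other 19937 genes by the root mean square distance over the 7 arrays, after subtraction of the wild-type mean. Since the distance includes the difference between genotypes, such genes also rose. Cst7 lay nearest to C1qb (0.16 log2 units), Tyrobp (0.16) and Ly86 (0.18), a partner of a toll-like receptor homologue on myeloid cells. Clec7a lay nearest to Plek (0.09), the platelet and leukocyte protein pleckstrin, Olfml3 (0.12) and Mamdc2 (0.13). Igf1 lay nearest to the leukocyte surface protein Cd48 (0.10), the selectin ligand Selplg (0.11) and Cd300c2 (0.12). Csf1 lay nearest to the proton pump subunit Tcirg1 (0.09), the antiviral factor Shfl (0.10) and Antxr2 (0.10), a matrix-binding anthrax toxin receptor. Of these 12 genes, 10 were also among the nearest 3 by the largest difference on any array, the exceptions being Tcirg1 and Cd48. Of those nearest to Csf1, Tcirg1 passed in 1, Shfl in 6 and Antxr2 in 2 of the 7 fits without 1 array, and Cd48 passed in 3.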

How the data were processed

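The authors deposited 1 table of log2 values per probe set and array, made with Affymetrix Expression Console and RMA per the submitters' processing notes; no version is recorded in the sources used here. RMA equalises the probe distributions of the arrays and compresses changes of dim probe sets. Gene names came from GEO's platform table, whose symbols may be outdated. It gave 1 symbol to 21789 of 35556 probe sets, several to 1621 and none to 12146, and 21698 of the first matched a RefSeq gene (GRCm38.p6), with 0 symbols updated. The probe set with the highest mean stood for a gene.

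In limma 3.58.1 (R 4.3.3) the genotype difference was fitted for all 19938 genes, with 5 residual and 4.56 prior degrees of freedom and Benjamini-Hochberg adjustment over all genes. The procedure was tested on simulated data. Members, lists and alternatives were chosen with earlier results of these data known. Named were the members, up to 4 changed genes per list (or the brightest with none) and the 3 nearest profiles of each riser; further genes were picked with their values in view. The number of arrays limits the precision. Python 3.11.15, pandas 2.3.3 and matplotlib 3.10.9 were used otherwise. Alternatives changed the normalization, the filter on dim genes, the moderation, array weights, the choice of probe sets, a minimum change, a replicate block and muscle or rod covariates, and left out arrays.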

Additional observations from a re-analysis of the deposited data

Results flagged for a closer look

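Among the 90 wild-type sets of 4 arrays checked, 5 had 1 array far from the other 3, where chance gives about 1 in 20. Itgax had its lowest value in wild-type replicate 4 (6.10, next 6.25), and Cd9 in replicate 1 (9.18, next 9.50). Ms4a7 was highest in replicate 2 (5.65, next 5.34). The mean of the Dectin-1 cluster list was highest in replicate 1 (5.72, next 5.65), and that of the tetraspanin list in replicate 3 (9.80, next 9.72). Without the array named, the change was 0.46 for Itgax (limma adjusted p = 0.151) and 0.02 for Cd9 (0.891).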

How the results depend on the processing

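Cst7 kept its direction and passed in all 20 alternatives, and Lpl, Cd9 and Lgals3 passed in none. Members that rose numbered 3 to 4 when 1 array was left out, 2 with all probe sets tested, 1 against a minimum change of 1 log2 unit, 1 with the muscle covariate, 2 with the rod covariate and 2 with both wild-type array 3 and mutant array 2 left out. In that order, from all probe sets on, Csf1 gave 0.49 (limma adjusted p = 0.104), 0.49 (1), 0.65 (0.309), 0.45 (0.191) and 0.46 (0.203), and Igf1 gave 0.93 (0.059), 0.93 (1), 0.87 (0.458), 0.83 (0.0959) and 0.77 (0.0993). Clec7a did not pass against the minimum change (1.51, adjusted p = 1) or with the muscle covariate (1.08, 0.169). Itgax passed with array weights (0.60, 0.0164), with a mean of at least 6 (0.50, 0.0455) and with a variance trend and robust moderation (0.50, 0.0423). Leaving out 1 array gave 0.43 to 0.56 for Csf1 and 0.39 to 0.64 for Itgax. Clec7a and Itgax were not tested when only genes above the median were kept, and Cst7 entered that fit through its mutant values alone. Clec7a, at 5.60 in wild type, likewise entered the fit with a mean of at least 6 through its mutant values.

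All 429 changed genes became 718 with a variance trend, 679 with array weights, 167 with all probe sets, 26 against the minimum change, 40 with the muscle and 156 with the rod covariate, 193 without both arrays, and 211 to 325 when 1 array was left out. The cause was not tested, except that more features, fewer arrays or a stricter null are part of some settings. The muscle mean used as a covariate also separated the groups by itself. Deviations of same-numbered arrays of the 2 groups from their group means correlated at -0.303, -0.073 and 0.036. No Mfrp rd6 array correlated best with its own number. Replicate 1 did so with wild-type 2 (0.369), 2 with 3 (0.154) and 3 with 1 (0.26). Subtracting the means of so few arrays constrains these correlations, so they do not settle whether the numbers pair the arrays. With the replicate block 226 genes and 3 members passed, Csf1 (0.53, limma adjusted p = 0.0656) not among them.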
